A study of Mus musculus with 79 samples.

Results

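The comparison described here asked whether chronic social defeat stress (CSDS) changed gene expression by a different amount in the medial prefrontal cortex (mPFC) than in the ventral hippocampus (vHipp) of saline-treated mice. It is an interaction, the CSDS minus CTRL difference in the mPFC minus the same difference in the vHipp. Its libraries were those whose labels name saline, 40 of the 79 libraries of the series, 10 each from the mPFC and the vHipp of 10 CTRL and 10 CSDS mice, so that each of the 20 mice gave 1 library per region. All mice were wild-type male CD-1 (ICR) mice of 9 to 10 weeks, kept in groups of 4. The CSDS mice had gone through 21 days of social defeat, in a form of the paradigm that returned them to their own group after each encounter, and CTRL mice stayed in group housing. Every mouse then lived with its group in the social box, a large enriched arena, received 1 saline injection, and was killed 7 days after it. The remaining libraries came from mice given ketamine, which enter only where that is stated. Each library was made from RNA of small punches of brain slices, and each stress group mixes dominant and subordinate animals, since social rank was not used here. Within each stress group the mouse numbers fall into 5 sets, each with 2 saline mice per stress group. Sets match CTRL and CSDS mice only by the order of their numbers. The study exposed whole groups of 4 to stress, 5 groups per condition, and the labels do not name the group of a mouse. The main fits and the permutation tests treat mice as independent, so variation shared within a group was not separated.

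The mPFC and the vHipp are connected parts of the forebrain circuit that weighs threat and social experience, and both carry receptors for the glucocorticoids that stress releases. Repeated defeat is known for effects on neurons and also on microglia, the resident macrophages of the brain, and on the cells of brain vessels. In a tissue punch the RNA of all these cells is read together. For every group of genes below, fewer cells of a type and less RNA per cell cannot be told apart.

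Total counts per library lay between 11726129 and 37421747 over the 40 libraries, with group medians from 19557124 to 20260592. Within mice, the log2 ratio of the mPFC total to the vHipp total averaged 0.129 ± 0.297 (SD, n = 10) with CSDS, against -0.235 ± 0.368 (SD, n = 10) for CTRL animals (permutation test, two-sided, p = 0.0272), so sequencing depth itself differed along the contrast. Its part in the results was not tested, although all fits scale for depth. The labelled regions matched the summed level of their markers in all mice. Hippocampal subfield markers summed higher in the vHipp, and cortical layer markers in the mPFC, in 10 of 10 CTRL and 10 of 10 CSDS mice. Single markers went both ways. In CTRL mice 8 of 21 hippocampal markers were higher in the vHipp and 6 in the mPFC (Benjamini-Hochberg adjusted p under 0.05, edgeR). Of 20 cortical markers 11 were higher in the mPFC and 5 in the vHipp. Prox1, a transcription factor of dentate granule cells, lay between 15.3 and 33.2 CPM (a gene's counts relative to the total of its library, scaled by TMM) in the mPFC and between 48.9 and 285 CPM in the vHipp, and the groups of the 2 regions did not overlap. In 2 CSDS mice the vHipp library stood apart through Ttr, the transthyretin gene that choroid plexus cells express at very high level. Mouse 9 had 664 CPM and mouse 13 had 66.6 CPM, while the vHipp libraries of CTRL mice did not exceed 7.76 CPM. For gene lists whose count moved without mice 9 and 13, both counts are given, but for choroid plexus markers only the medians and Ttr are.

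No gene passed the test of the interaction. Of 29227 genes tested by edgeR's quasi-likelihood method with the mouse as a block, 0 had a Benjamini-Hochberg adjusted p under 0.05 (0% of genes, lowest adjusted p = 0.450). At an unadjusted p under 0.05, 900 genes (3.08%) had a positive interaction, meaning a more positive effect of CSDS in the mPFC, and 1080 (3.7%) had a negative one. DESeq2 called 7 genes at an adjusted p under 0.05, of which 5 were negative (Itgam, Rps27, mt-Co3, Gm28438 and Gm29216) and 2 positive (Tert and Cpsf6). A fit by edgeR with terms for region and set called 5 genes, all negative, Rps27 and mt-Co3 among them. Leaving out CTRL mouse 35 gave 11 calls. The shares among genes of at least 1 CPM, the level of most list members, were 4.32% positive and 4.88% negative, and the counts of members below are to be read against them. The counts at an unadjusted p are used below to describe gene groups, and they are not calls. Members of a list were measured in the same mice and can move together, so a count is not that many independent results. The lists were chosen with earlier results of these data known. All fold changes are given as log2 fold changes (LFC), and an interaction LFC of -0.58 says that the stress effect in the mPFC lay 0.58 below that in the vHipp.

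The stress effect within each region gave no call either. In the mPFC, 0 of 26715 genes (0%) had an adjusted p under 0.05 by edgeR's quasi-likelihood test, and at an unadjusted p under 0.05, 296 (1.11%) had a positive stress effect and 361 (1.35%) a negative one. For the vHipp, 0 of 26643 genes (0%) passed the adjustment (lowest adjusted p = 0.621), while 906 (3.4%) had a positive and 664 (2.49%) a negative effect at an unadjusted p under 0.05. Counts of list members within a region below are to be read against these shares of the mPFC and the vHipp. DESeq2 called 1 gene in the vHipp, Itgam. Among genes of at least 1 CPM, 767 had a negative interaction at an unadjusted p under 0.05, and in 670 of them the stress effect was below 0 in the mPFC and above 0 in the vHipp. The vHipp effect was the larger of the pair in 80.8% of these 767 genes and in 82.2% of the 679 genes with a positive interaction, against 63.4% of all 15727 genes of that level. These shares describe how the interaction was made up, and the same libraries enter both quantities.

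**Figure D1:**
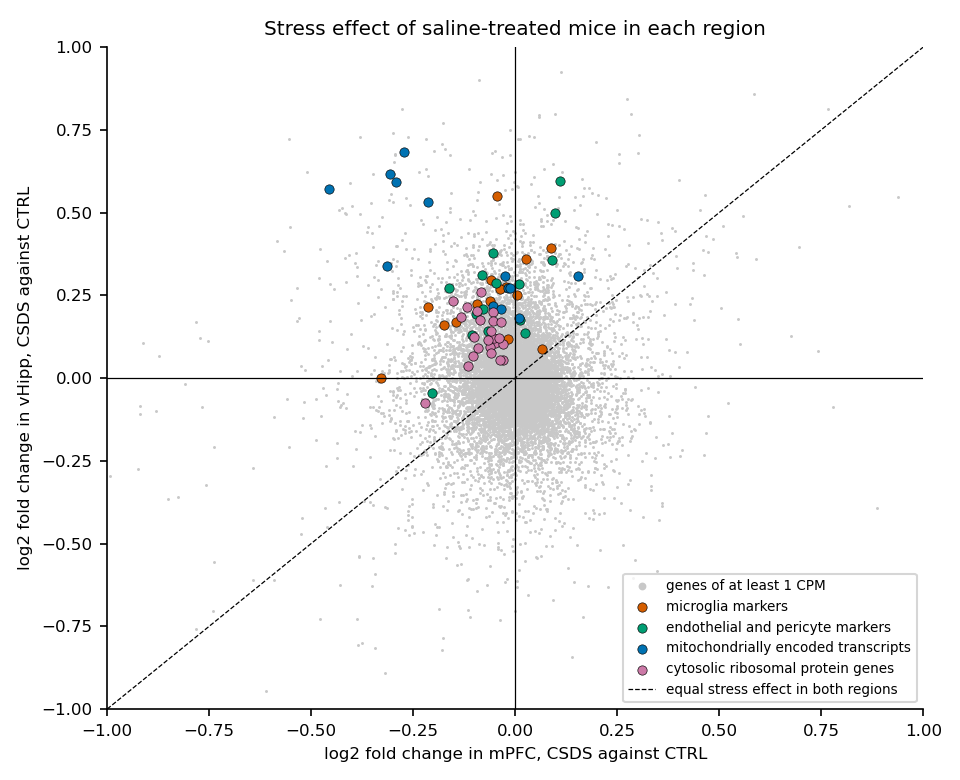
Each point is a gene, placed by its log2 fold change between CSDS and CTRL mice in the mPFC (x axis) and in the vHipp (y axis). Grey points are genes of at least 1 CPM, coloured points are the members of 4 gene lists, and the dashed line marks equal stress effects, so that distance above the line is a negative interaction. Of the grey genes, 21 are beyond the axes or lack a value in 1 region. Itgam, for example, sits at -0.05 on the mPFC axis and 0.55 on the vHipp axis.

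Tert had the smallest p of all genes with a positive interaction. It encodes the reverse transcriptase subunit of telomerase and lies on chromosome 13 of GRCm38, from 73626911 to 73649843. In the mPFC its lowest, median and highest values were 2.78, 4.51 and 5.95 CPM in CTRL mice and 3.11, 4.90 and 6.11 CPM in CSDS mice. In the vHipp they were 2.74, 3.85 and 5.09 CPM in CTRL mice and 1.36, 2.70 and 3.74 CPM in CSDS mice. The mPFC groups covered the same range, the vHipp of CSDS mice lay lower with overlap, and the mPFC exceeded the vHipp in 10 of 10 CSDS mice and 7 of 10 CTRL mice. The interaction LFC was 0.68 (standard error 0.13), with an unadjusted p of 2.65e-05 and an adjusted p of 0.450 by edgeR. A permutation test over mice of the within-mouse log2 difference, two-sided, gave p = 0.00018, and the direction was the same in 5 of 5 sets of mice. Tert was named for its p in these same libraries, so both values describe that choice again and are no independent evidence. The same holds for every other gene named by its p, and the permutation p-values are not adjusted.

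Nectin1, which encodes a cell adhesion molecule of junctions and synapses (chromosome 9, 43743984 to 43832658), followed in order of p. Its mPFC values were 53.8, 60.7 and 78.7 CPM in CTRL mice and 59.1, 66.2 and 84.5 CPM in CSDS mice, and its vHipp values were 65.1, 88.2 and 100.9 CPM and 61.6, 72.1 and 85.5 CPM. The ranges of the regions overlapped in both stress groups, and the vHipp exceeded the mPFC in 10 of 10 CTRL mice and 7 of 10 CSDS mice. The interaction LFC was 0.31 (standard error 0.07, unadjusted p = 0.00019 by edgeR). Cpsf6, a subunit of the complex that cleaves messenger RNA before polyadenylation, had an LFC of 0.25, Setd1b, a histone H3 lysine methyltransferase, 0.20, and Rbm33, an RNA-binding protein, 0.20. Shprh, a ubiquitin ligase of DNA repair, and Scaf4, a factor of transcript termination, had LFCs of 0.24 and 0.17. Among these 10 genes with the smallest p, Gm37776 and Gm5619 were predicted genes of low level, with LFCs of 0.54 and 0.85. All 10 had a negative stress effect in the vHipp, from -0.63 for Gm5619 to -0.10 for Per1, and a positive one in the mPFC, from 0.01 for Scaf4 to 0.35 for Gm37776.

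Among genes with a negative interaction, Itgam had the smallest p. Itgam encodes the integrin CD11b on microglia and other myeloid cells (chromosome 7, 128062640 to 128118491). In the mPFC its lowest, median and highest values were 4.45, 6.62 and 8.55 CPM in CTRL mice and 4.68, 6.36 and 8.10 CPM in CSDS mice. In the vHipp they were 3.24, 5.08 and 5.67 CPM in CTRL mice and 5.31, 7.55 and 8.90 CPM in CSDS mice. The mPFC groups covered the same range, and the vHipp groups overlapped only at their edge, between 5.31 and 5.67 CPM. The vHipp stress LFC was 0.55 (standard error 0.11, unadjusted p = 5.10e-05) and the interaction LFC was -0.58 (standard error 0.12, unadjusted p = 4.97e-05, adjusted p = 0.450, all by edgeR). The permutation test of the within-mouse difference, two-sided, gave an unadjusted p of 0.00034. Leaving out any 1 mouse kept the LFC between -0.64 and -0.53.

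Sema3c, a secreted semaphorin that guides axons (chromosome 5, 17574281 to 17730268), was the other protein-coding gene among the 10 negative interactions of smallest p that belongs neither to the ribosome nor to the mitochondrion. It was higher in the mPFC in all 20 mice, with medians of 29.1 CPM in CTRL and 26.3 CPM in CSDS mice, against 17.4 and 21.5 CPM in the vHipp. The ranges of the vHipp were 12.8 to 19.0 CPM in CTRL and 15.9 to 26.2 CPM in CSDS mice, and they overlapped. Its interaction LFC was -0.41 (standard error 0.09, unadjusted p = 0.000181 by edgeR). The region gap was narrower in CSDS mice, with an mPFC to vHipp LFC of 0.77 in CTRL and 0.36 in CSDS mice.

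**Figure D2:**
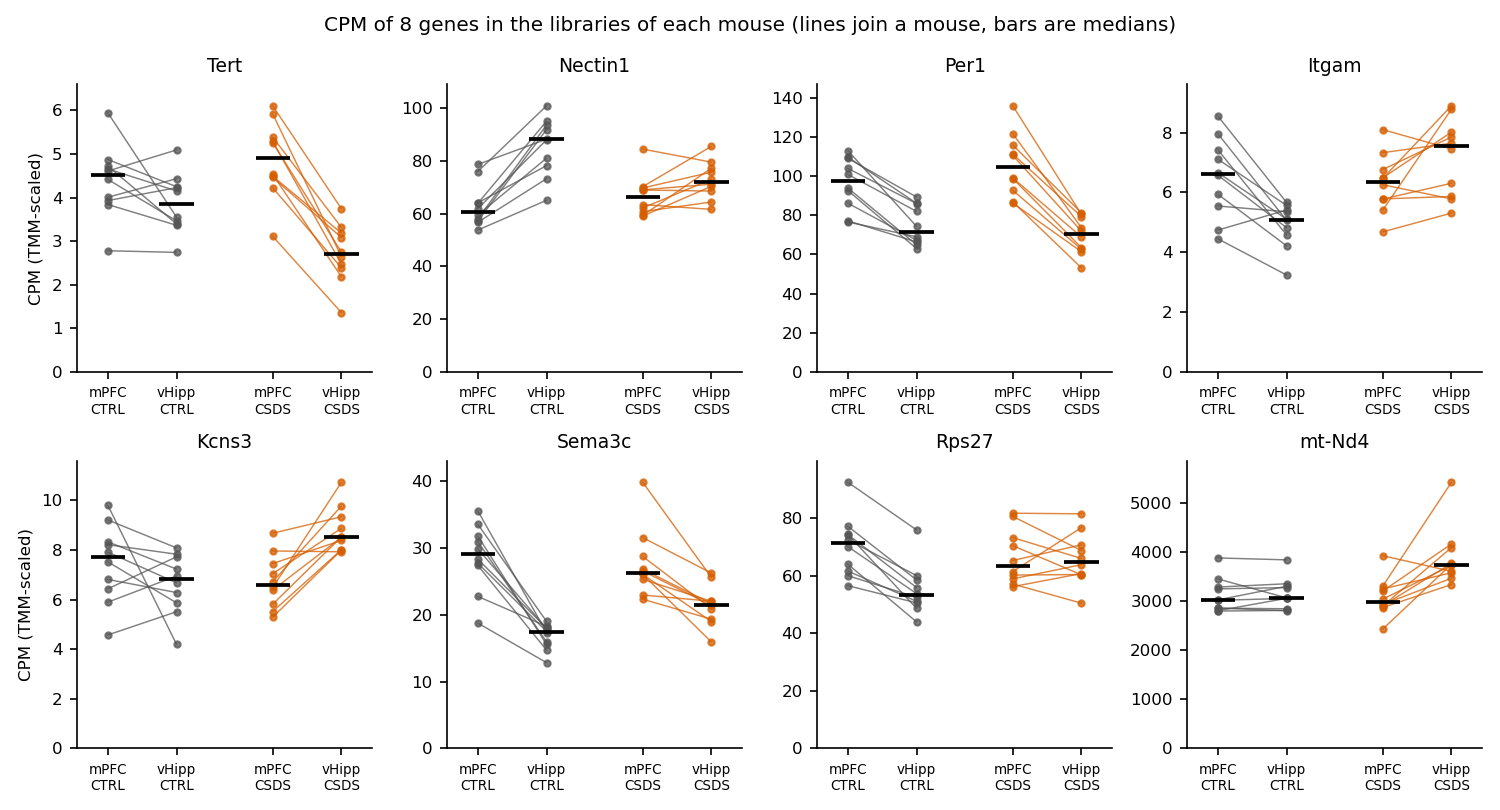
CPM (y axis, from 0, TMM-scaled) of 8 genes in the mPFC and vHipp libraries of each mouse, for CTRL mice (grey) and CSDS mice (orange), 10 each. Lines join the libraries of 1 mouse and bars are group medians. For Itgam the lines run down in 9 of 10 CTRL mice and in 2 of 10 CSDS mice, and for Tert they run down in 7 of 10 CTRL mice and in 10 of 10 CSDS mice.

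Of the cell type lists, that of microglia markers had the largest share of negative interactions. Of 15 genes, 12 had a negative interaction at an unadjusted p under 0.05, against 3.7% of all genes tested and 4.88% of those of at least 1 CPM, and 0 had a positive one. The median LFC was -0.30, against 0.01 over all genes tested. All 15 estimates were below 0. Itgam had the smallest p of the list. Tmem119, a surface protein of resident microglia, had an LFC of -0.39 (unadjusted p = 0.00441), and Cx3cr1, the fractalkine receptor, had -0.29 (unadjusted p = 0.00546, both by edgeR). Tmem119 had lowest, median and highest values of 11.8, 19.5 and 30.6 CPM in the mPFC of CTRL mice and 14.1, 16.1 and 23.0 CPM in that of CSDS mice. Its vHipp values were 13.4, 15.7 and 20.9 CPM in CTRL mice and 10.9, 19.4 and 25.0 CPM in CSDS mice, so that groups overlapped in both regions.

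The summed level of the 15 microglia genes was 336, 432 and 559 CPM (lowest, median, highest) in the mPFC of CTRL mice and 349, 424 and 478 CPM in that of CSDS mice. In the vHipp the sum was 260, 340 and 390 CPM in CTRL mice and 317, 389 and 508 CPM in CSDS mice. The mPFC was above the vHipp in 9 of 10 CTRL mice and in 5 of 10 CSDS mice. In the vHipp, 7 of the 15 genes were higher with CSDS at an unadjusted p under 0.05 (3.4% of all genes tested there) and 0 were lower. In the mPFC 0 were higher and 1 was lower, Aif1, a calcium-binding protein of microglia named after its values were seen (LFC -0.33, unadjusted p = 0.0195, edgeR). Its vHipp stress LFC was -0.00, so its interaction LFC of -0.35 (unadjusted p = 0.0135, edgeR) came from the mPFC. P2ry12, a purine receptor of resting microglia named in the same way, had LFCs of -0.06 in the mPFC and 0.23 in the vHipp.

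The count of 12 depended on single mice and on the fit. Without the 4 libraries of mice 9 and 13 it was 5 of 15, with a median LFC of -0.23, and without the mouse as a block it was also 5, with a median of -0.31. In a fit of all mice with both regions, ketamine included, it was 4. Leaving out single mice gave 8 to 13, with 8 without mouse 9, 13 or 19 and 9 without mouse 10, 24 or 30.

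Markers of endothelial cells and pericytes, the lining and the contractile cells of small vessels, had 6 negative interactions and 0 positive among 15 genes (median LFC -0.27), with all 15 estimates below 0. Kcnj8, a subunit of the ATP-sensitive potassium channel of pericytes, had an LFC of -0.52 (standard error 0.13, unadjusted p = 0.000528). Rgs5, a regulator of G protein signalling in pericytes, had -0.41, Ly6c1, an endothelial surface antigen, -0.42, and Flt1, a VEGF receptor, -0.38, while Cldn5, the tight junction claudin of the blood-brain barrier, had -0.28 (unadjusted p = 0.0928, edgeR). Rgs5 values in the vHipp were 51.4, 61.8 and 76.9 CPM in CTRL mice and 59.1, 75.5 and 115.998 CPM in CSDS mice, and the groups overlapped. In the vHipp, 8 of these 15 genes were higher with CSDS at an unadjusted p under 0.05 (3.4% of all genes tested there), and in the mPFC 0 passed. The summed level of the mPFC exceeded that of the vHipp in 10 of 10 CTRL mice and 7 of 10 CSDS mice. The count of 6 became 4 without mice 9 and 13 (median LFC -0.15), 3 with all mice in the fit, and 11 without mouse 7.

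Astrocyte markers had the same sign with fewer genes under the threshold. Of 15, 5 were negative at an unadjusted p under 0.05 and 0 positive (median LFC -0.21), among them Aldoc, a glycolytic aldolase (LFC -0.27), S100b, a calcium-binding protein (-0.29), Glul, the glutamine synthetase (-0.26), and Aldh1l1, an enzyme of folate metabolism (-0.21). Gfap, the intermediate filament of reactive astrocytes, had -0.20 with a standard error of 0.36. In the vHipp, 7 of the 15 were higher with CSDS (3.4% of all genes tested there) and 0 lower, and 0 passed in the mPFC. The count of 5 was 1 without mice 9 and 13 (median LFC -0.13), 1 with all mice in the fit and 1 with the run (4 mouse numbers) as a random effect. Without 1 mouse it ran from 1 (without mouse 27, 38 or 19) to 10 (without mouse 7). Markers of oligodendrocytes and myelin gave 0 of 20 in either direction (median LFC -0.20), although all 20 estimates were below 0, and their levels varied widely, Mbp, the myelin basic protein, from 312 to 2899 CPM in the mPFC. Oligodendrocyte precursor markers gave 0 of 8, with 7 estimates below 0.

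Blood and choroid plexus markers also had interactions below 0. Of 6 hemoglobin and erythroid genes, 4 were negative at an unadjusted p under 0.05 (median LFC -0.61), Hbb-bs, the adult beta globin, by an LFC of -0.62. Their summed level was 83.2, 129.1 and 467 CPM in the mPFC of CTRL mice, 84.8, 109.5 and 318 CPM in that of CSDS mice, 41.6, 57.4 and 117.999 CPM in the vHipp of CTRL mice and 42.1, 66.6 and 280 CPM in that of CSDS mice. Of 15 choroid plexus genes, 2 were negative, Ttr (LFC -3.84, standard error 1.76, unadjusted p = 0.0394) and Clic6, a chloride channel protein (LFC -2.17). The sum of the choroid list in the vHipp of CSDS mice was 86.2, 117.1 and 1003.4 CPM, with the highest value in mouse 9. Without mice 9 and 13 the Ttr LFC was 0.55 and the median of the list moved from -0.49 to 0.04, and the hemoglobin count was 0 of 6 with a median LFC of -0.46. The hemoglobin count was also 0 without the block and with limma-voom, and 1 without mouse 24 or mouse 9 alone. Without 1 mouse the choroid plexus count ran from 1 (mouse 9 among others) to 6 (mouse 2). Meningeal and fibroblast markers gave 0 of 12. What blood, vessel or choroid plexus tissue in the punches contributed to the other lists was not tested beyond these values.

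**Figure D3:**
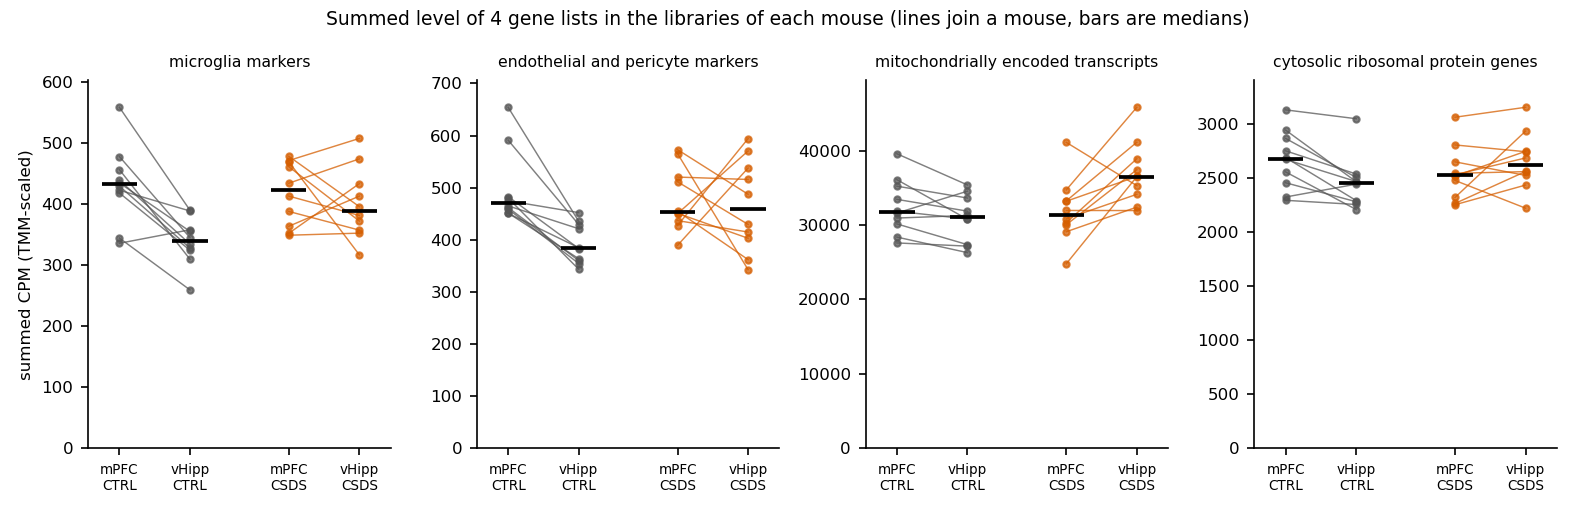
Summed CPM (y axis, from 0, TMM-scaled) of the members of 4 gene lists in the mPFC and vHipp libraries of each mouse, CTRL mice in grey and CSDS mice in orange, 10 each, with lines joining the libraries of 1 mouse and bars at group medians. The mPFC exceeds the vHipp for mitochondrially encoded transcripts in 8 of 10 CTRL mice and 2 of 10 CSDS mice, and for ribosomal protein genes in 9 and 3 mice.

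Transcripts encoded by the mitochondrial genome also had negative interactions. The 13 protein-coding genes of this genome supply core subunits of the respiratory chain and of ATP synthase. Of them, 11 had a negative interaction at an unadjusted p under 0.05 and 0 a positive one (median LFC -0.33). mt-Nd4, a subunit of complex I (mitochondrial genome, 10167 to 11544), had lowest, median and highest values of 2801, 3023 and 3884 CPM in the mPFC of CTRL mice and 2432, 2989.7 and 3929 CPM in that of CSDS mice. In the vHipp they were 2808, 3065 and 3845 CPM in CTRL mice and 3340.3, 3745 and 5428 CPM in CSDS mice. The mPFC groups covered the same range, whereas the vHipp of CSDS mice was shifted upwards, with CTRL mice 24 and 27 above the lowest CSDS mouse. The interaction LFC of mt-Nd4 was -0.33 (standard error 0.08, unadjusted p = 0.000465 by edgeR), and the vHipp stress LFC was 0.31.

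Subunits of complex IV and of ATP synthase had larger values at lower level. mt-Co3 (8607 to 9390) had an LFC of -0.86 (standard error 0.18, unadjusted p = 8.02e-05), mt-Co2 (7013 to 7696) -0.92 (standard error 0.22) and mt-Atp6 (7927 to 8607) -0.83 (standard error 0.19). Their mPFC levels lay below their vHipp levels in 10 of 10 CSDS mice and in 3 of 10 CTRL mice. Predicted genes on chromosome 1 between 24611535 and 24616197, Gm28439, Gm28438, Gm10925 and Gm29216, and Gm13340 on chromosome 2 (22588103 to 22589647) were in the leading 10 with LFCs from -0.93 to -0.67. They are nuclear copies of mitochondrial sequence, and reads that fit both places can be assigned to either, so the values of mt-Co2, mt-Co3, mt-Atp6 and these genes are uncertain. In the vHipp 10 of the 13 mitochondrial genes were higher with CSDS at an unadjusted p under 0.05 (3.4% of all genes tested there), and in the mPFC 0 passed. The count of 11 was 9 without the block and 11 without mice 9 and 13 (median LFC -0.26).

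Nuclear genes of the same respiratory complexes shared the direction with smaller values. Of 26, 15 had a negative interaction at an unadjusted p under 0.05 and 0 a positive one, with a median LFC of -0.14 and all 26 estimates below 0. Ndufb3, an accessory subunit of complex I, had an LFC of -0.25 (standard error 0.06, unadjusted p = 0.000734, edgeR), Ndufa1, another one, -0.21, and Cox8a and Cox6c, subunits of complex IV, -0.19 and -0.17. Within each region 0 of the 26 passed. The count was 1 without the block, 2 with limma-voom and 9 without mice 9 and 13, and without 1 mouse it ran from 8 without mouse 38 to 17.

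Genes of cytosolic ribosomal proteins had 20 negative interactions and 0 positive among 24 (median LFC -0.18), and all 24 estimates were below 0. Rps27, a protein of the small subunit (chromosome 3, 90212522 to 90213651), had 56.5, 71.3 and 92.4 CPM in the mPFC of CTRL mice and 56.2, 63.3 and 81.7 CPM in that of CSDS mice. Its vHipp values were 43.9, 53.1 and 75.9 CPM in CTRL mice and 50.4, 64.9 and 81.5 CPM in CSDS mice. All groups overlapped, but the mPFC exceeded the vHipp in 10 of 10 CTRL mice and in 5 of 10 CSDS mice. The interaction LFC was -0.34 (standard error 0.07, unadjusted p = 6.85e-05, adjusted p = 0.450, edgeR). Rpl38, Rps21 and Rpl37 followed with -0.32, -0.30 and -0.28. In the vHipp 8 of 24 were higher with CSDS at an unadjusted p under 0.05 (3.4% of all genes tested there), and in the mPFC 0 passed. Without the block the count was 10, and without mice 9 and 13 it was 14 (median LFC -0.13).

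**Figure D4:**
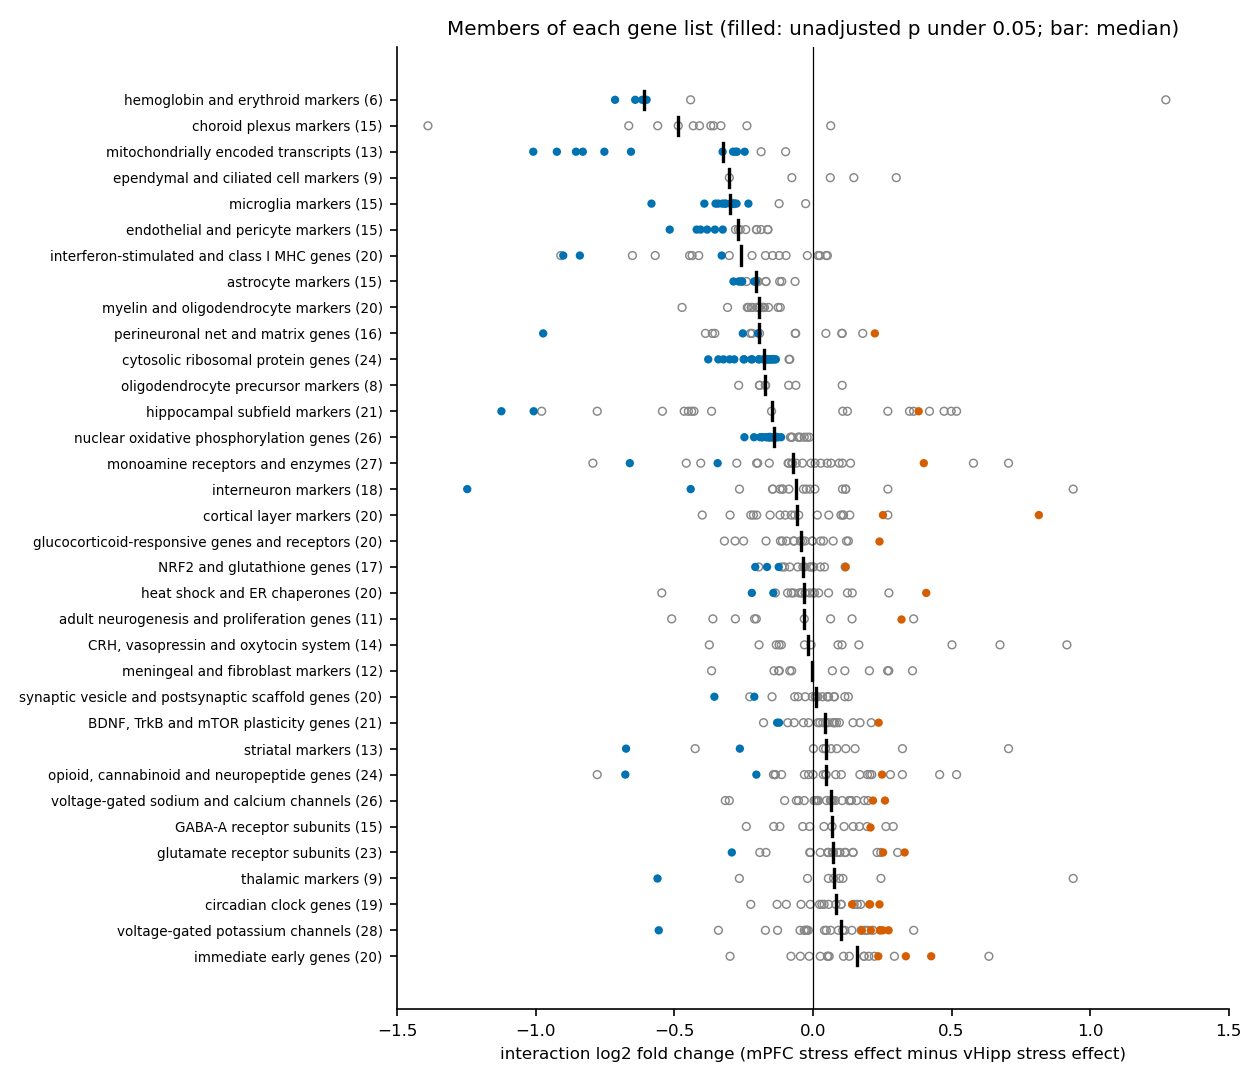
Interaction log2 fold change (x axis) of the members of 34 gene lists, with the number tested in brackets, ordered by the median (black bar). Filled points have an unadjusted p under 0.05, in blue below 0 and in orange above 0, and 14 members lie outside the axis. Microglia, vessel, mitochondrial and ribosomal lists lie to the left of 0, and immediate early, clock and potassium channel genes have medians to the right of it.

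The interaction moved with gene length. Genes of at least 1 CPM were split by the length given in the count table into 5 bins of nearly equal size. In the bin of the shortest genes (57 to 2139 bases) the median interaction LFC was -0.03, with 10.6% of 3146 genes negative and 2.86% positive at an unadjusted p under 0.05. In that of the longest (7423 to 123179 bases) the median was 0.05, with 1.84% negative and 7.79% positive. In the mPFC the median stress LFC went from -0.03 to 0.02 along the bins, and in the vHipp it ran from 0.00 to -0.03. The ribosomal, mitochondrial and nuclear respiratory lists consist of short genes, with median lengths of 1752, 784 and 1879.5 bases. With an offset for length, chosen after the data were seen, the ribosomal count was 17 of 24 (median LFC -0.18), the mitochondrial 10 of 13 (-0.30), the respiratory 10 of 26 (-0.12) and the microglia 12 of 15 (-0.28). By GC content, the bins had medians between -0.00 and 0.03.

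**Figure D5:**
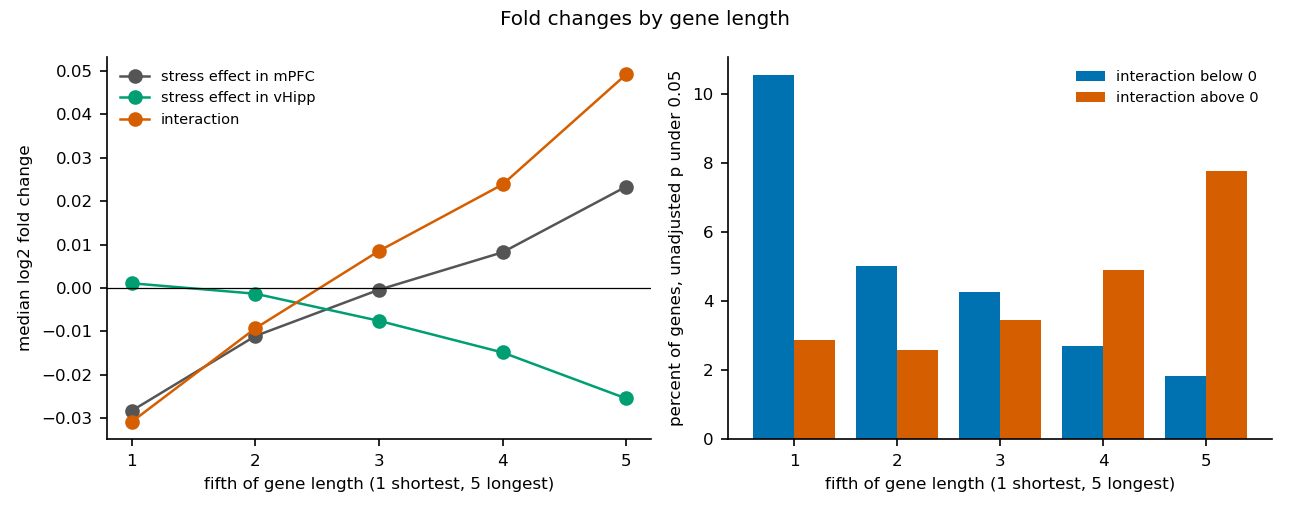
Genes of at least 1 CPM in 5 bins of length (x axis, shortest to longest). On the left, the median log2 fold change (y axis) over the genes of each bin for the stress effect in the mPFC, that in the vHipp and the interaction, and on the right, the percent of genes with an unadjusted p under 0.05, below 0 (blue) and above 0 (orange). The share below 0 goes from 10.6% in the bin of the shortest genes to 1.84% in that of the longest.

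Genes that respond to neuronal activity had 16 of 20 estimates above 0. Of these 20 immediate early genes, 3 had a positive interaction at an unadjusted p under 0.05 (4.32% of all genes of at least 1 CPM) and 0 a negative one (median LFC 0.16). The stress effect of the list had a median LFC of 0.16 in the mPFC, where 2 genes were higher with CSDS at an unadjusted p under 0.05, Egr1 and Egr2, and 0 lower. In the vHipp the median was 0.01, with 3 higher, Arc, Nr4a1 and Ier2, and 1 lower, Jun. All of these but Jun were named after their values were seen. Jun, a subunit of the AP-1 transcription factor (chromosome 4, 95049034 to 95052222), had 28.8, 37.3 and 44.6 CPM in the mPFC of CTRL mice and 30.1, 41.7 and 49.0 CPM in that of CSDS mice, and in the vHipp 110.1, 149.5 and 192 CPM and 77.3, 123.4 and 152.6 CPM. The region gap was wide in both groups and the stress groups overlapped in each region. Its interaction LFC was 0.43 (standard error 0.14, unadjusted p = 0.00562), and Btg2, an antiproliferative factor, and Egr3, a zinc finger factor, had 0.34 and 0.24. Fos had 0.22 with a standard error of 0.24. The count of 3 was 2 without mice 9 and 13 (median LFC 0.10), 1 without the block, 1 with the run as a random effect and, without 1 mouse, from 1 (mouse 38) to 4. Bdnf, the neurotrophin, had 0.24 (unadjusted p = 0.0441, edgeR), with a vHipp stress LFC of -0.20 and an mPFC one of 0.02. In its list of 21 plasticity genes 1 was positive and 2 negative (0 and 1 without mice 9 and 13), Eef2 and Rheb, which act in translation and in mTOR signalling.

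Of 19 circadian clock genes, 4 were positive and 0 negative (median LFC 0.08). The positive share was 4.32% among genes of at least 1 CPM and 4.90% among those of 5047 to 7421 bases. The median length of the list is 5856 bases. Per1, a repressor of the clock that glucocorticoids also induce (chromosome 11, 69095217 to 69109960), had 76.6, 97.5 and 113.1 CPM in the mPFC of CTRL mice and 86.3, 104.95 and 136.1 CPM in that of CSDS mice. Its vHipp values were 63.0, 71.7 and 89.4 CPM in CTRL mice and 53.2, 70.5 and 81.3 CPM in CSDS mice. It was higher in the mPFC in all 20 mice, and the stress groups overlapped within each region. The interaction LFC was 0.24 (standard error 0.06, unadjusted p = 0.00056, adjusted p = 0.491, edgeR), and Per2, Per3 and Tef, a transcription factor of clock output, had 0.20, 0.21 and 0.14. The count of 4 was also 4 without mice 9 and 13 (median LFC 0.04), but it was 0 without the block, 1 with the length offset (median LFC 0.03) and, without 1 mouse, from 1 (mouse 22) to 5. Per1 was also the 1 of 20 glucocorticoid-responsive genes and receptors under the threshold, where the median LFC was -0.04. Nr3c1, the glucocorticoid receptor, had an interaction LFC of -0.00 (standard error 0.07), and Fkbp5, its co-chaperone, named after its values were seen, had 0.04 (standard error 0.09). For Fkbp5 the mPFC held 18.2 to 31.0 CPM and the vHipp 52.8 to 77.4 CPM over both stress groups. Of 14 genes of the CRH, vasopressin and oxytocin system 0 passed, and Crh had -0.13 (standard error 0.33).

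Voltage-gated potassium channels had 6 positive and 1 negative interaction among 28 genes (median LFC 0.10). Kcnd3, Kcnv1 and Kcna4 had LFCs of 0.24, 0.25 and 0.24. The count of 6 was 1 without mice 9 and 13 (median LFC 0.02), 3 without the block, 3 with the run as a random effect, 4 with the length offset (median LFC 0.04) and, without 1 mouse, from 3 (mouse 28, 4 or 9) to 6. The negative one was Kcns3, a modifying subunit that is enriched in parvalbumin interneurons of the cortex (chromosome 12, 11090202 to 11151056). Earlier results of these data had singled out Kcns3. Its mPFC values were 4.57, 7.72 and 9.81 CPM in CTRL mice and 5.29, 6.60 and 8.68 CPM in CSDS mice, and its vHipp values were 4.19, 6.81 and 8.09 CPM and 7.93, 8.52 and 10.7 CPM. In the vHipp the stress groups overlapped only between 7.93 and 8.09 CPM. The interaction LFC was -0.56 (standard error 0.14, unadjusted p = 0.000671, adjusted p = 0.491), and the vHipp stress LFC was 0.41 (standard error 0.10, unadjusted p = 0.00034, edgeR). Pvalb, the calcium-binding protein of these interneurons, had an interaction LFC of -0.44 (unadjusted p = 0.0411), and in its list of 18 interneuron markers 2 were negative and 0 positive.

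Other neuronal lists had few genes under the threshold, beside shares of 4.32% positive and 4.88% negative of all genes of at least 1 CPM. Of 26 sodium and calcium channel genes 2 were positive, Cacna1c, the L-type calcium channel (LFC 0.26), and Scn3a (0.22), of which 1 passed without mice 9 and 13. Of 23 glutamate receptor subunits 2 were positive, among them Grik2, a kainate receptor (0.25), and 1 was negative, Grin2c, an NMDA receptor subunit (-0.29), and without mice 9 and 13 these counts were 2 and 0. Of 15 GABA-A receptor subunits 1 was positive, Gabra4 (0.20), and 1 negative, Gabra6, for which the median was 0 CPM in each group, and without mice 9 and 13 the counts were 0 and 1. Of 24 opioid, cannabinoid and neuropeptide genes 1 was positive and 2 negative (0 and 1 without mice 9 and 13). Among the latter was Tac2, which encodes neurokinin B and had a vHipp stress LFC of 0.80 and an interaction LFC of -0.68 (standard error 0.20, unadjusted p = 0.00207, edgeR). Of the 24 estimates of its list 15 were above 0, with a median of 0.05.

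Markers that depend on where a punch falls varied within the vHipp. Of 21 hippocampal subfield markers 2 were negative and 1 positive (3 and 0 without mice 9 and 13). Fibcd1 and Pou3f1, which mark CA1 pyramidal cells, had interaction LFCs of -1.12 and -1.01, and Amigo2, an adhesion molecule of CA2, had 0.38. Of the 21 estimates 10 were above 0 and 11 below, with a median of -0.15. In the vHipp Fibcd1 was 9.71, 26.0 and 98.7 CPM in CTRL mice and 17.0, 54.9 and 208 CPM in CSDS mice, and Prox1 was 100.9, 213 and 285 CPM and 48.9, 143.4 and 250 CPM. The spread within each group was wide and the groups overlapped. Of 20 cortical layer markers 2 were positive, Scnn1a (LFC 0.82) and Rasgrf2 (0.25), although 11 of the 20 estimates were below 0 and their median was -0.06. Of 13 striatal markers 3 were negative, among them Adora2a, the adenosine receptor of striatal output neurons (-0.67), and Ppp1r1b, the phosphoprotein DARPP-32 (-0.26), with 2 negative without mice 9 and 13, while 9 of the 13 estimates were above 0 and their median was 0.05. The part of punch position in the interaction was not tested.

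Seen from the regions, the same contrast is a change in how mPFC and vHipp differ. In CTRL mice 4938 genes (16.9%) were higher and 4932 (16.9%) lower in the mPFC than in the other region by edgeR (adjusted p under 0.05), and in CSDS mice 4816 (16.5%) were higher and 4803 (16.4%) lower. By this test 13 of 15 microglia markers and 13 of 15 vessel markers were higher in the mPFC of CTRL mice, and 1 and 3 were in CSDS mice. Of 24 ribosomal protein genes 12 were higher and 1 lower in the mPFC of CTRL mice, against 0 higher and 4 lower in CSDS mice. Of the 13 mitochondrial genes 0 differed between regions in CTRL mice and 12 were lower in the mPFC of CSDS mice, and for nuclear respiratory genes 11 and 22 of 26 were lower. These counts cross a threshold in one group and not in the other, and the interaction itself passed no adjustment.

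In ketamine-treated mice the same contrast was computed from 19 mice with both regions. There 0 of 29025 genes (0%) passed the adjustment by edgeR, and at an unadjusted p under 0.05, 464 (1.6%) were positive and 502 (1.73%) negative. Of the microglia, vessel, astrocyte, mitochondrial, respiratory and ribosomal lists 0 genes were under that threshold in either direction, with median LFCs of -0.14, -0.27, -0.15, -0.24, -0.00 and -0.04. The estimates were below 0 for all 15 microglia, 15 vessel, 15 astrocyte and 13 mitochondrial genes. They were below 0 for 19 of 24 ribosomal and 13 of 26 respiratory genes. Of 19 clock genes 3 were positive, Per1 among them (LFC 0.18, unadjusted p = 0.0347, edgeR), and 0 negative. The difference between the saline and ketamine contrasts, tested as a term of a fit of all mice with both regions, gave 0 calls among 31497 genes, with a lowest adjusted p of 0.694. At an unadjusted p under 0.05, 349 genes (1.11%) were more positive and 564 (1.79%) more negative in ketamine-treated mice. Of the list members, 0 microglia, vessel and mitochondrial genes were under it, and 5 respiratory and 5 ribosomal genes were, all more positive in ketamine-treated mice. All 26 respiratory and all 24 ribosomal estimates of this difference were above 0, with medians of 0.11 and 0.15, and no member passed the adjustment. H2-T22, H2-T23 and Srp54a, which earlier results of these data had singled out, had wide intervals in saline-treated mice. The interaction LFCs were 0.02 for H2-T22 (standard error 0.33) and -0.02 for H2-T23 (standard error 0.30), both class I histocompatibility genes. Srp54a, a subunit of the signal recognition particle, had 0.16 (standard error 0.19).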

How the data were processed

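Counts of reads per gene were analysed as the authors deposited them, in 1 table with a column for each of the 79 libraries, all of which matched a sample (0 columns of no sample). Libraries were stranded mRNA preparations, samples with an RNA integrity number under 8 had been removed, and the submitters' processing notes name GRCm38 and bcl2fastq 2.20.0.422. Which aligner and counting program were used is not given in the sources used here. Of 55471 identifiers 55144 matched a symbol and 327 did not. Samples were grouped by region, stress and treatment from their titles, which also give the number of the mouse.

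Genes with more than 10 counts in total and counts in more than 3 libraries were tested with edgeR 4.0.16 (R 4.3.3) by TMM scaling and the two-sided quasi-likelihood F test, with Benjamini-Hochberg adjustment over all genes tested. The interaction was fitted with the mouse as a block and the stress effect of each region without it. Standard errors are the absolute LFC divided by the square root of F. Permutation tests compared log2(CPM + 1), mPFC minus vHipp, between CSDS and CTRL mice with 100000 resamples (scipy 1.17.1). The mouse number pairs the libraries because both came from 1 animal. Deviations from the group means correlated between libraries of a mouse with a median of 0.283 (0.0626 to 0.517, 20 pairs, 15727 genes), against -0.0098 between mice. Library totals limit precision for genes of few counts. The closest pair of libraries in any group differed beyond counting noise (chi-square per gene of at least 4.65).

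Named genes were the 10 per direction with the smallest p at a mean of at least 1 CPM, from each of 34 lists the first gene and up to 4 with the smallest p under 0.05, and 5 genes singled out earlier (Ttr, Kcns3, H2-T22, H2-T23 and Srp54a). The members and lists were chosen with earlier results of these data known. On simulated data the interaction fit of 28598 genes recovered 66% of genes changed 1.5-fold, 94% at 2-fold, 100% at 3-fold and 98% at 4-fold, of 50 each. Changed genes had a mean of at least 20 counts, and their spread followed the trend over all genes. Variation shared by social groups was not simulated, nor were changes below 1.5-fold. Alternatives were DESeq2 1.42.0, limma 3.58.1 (voom, and within-mouse differences), RLE scaling, other filters, terms for sets, all mice in the fit, each mouse left out and another pseudocount. Offsets for GC content and length and leaving out mice 9 and 13 were chosen after the data were seen, as was the contrast in ketamine-treated mice. Some genes that the naming rule selects are not reported here.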

Additional observations from a re-analysis of the deposited data

Results flagged for a closer look

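In 18 groups of 10 libraries, each taken for 1 measure, 1 library stood apart from the rest by Dixon's criterion, which chance alone meets in about 1 in 20 groups. These were 12.2% of all groups so tested, of which a rate of 1 in 20 would give 7.4. Mouse 9 gave 4 of them in the vHipp of CSDS mice. It had 664 CPM of Ttr (nearest mouse 66.6), 452 CPM of mt-Co3 (nearest 248), 628 CPM of mt-Co2 (nearest 386) and 5428 CPM of mt-Nd4 (nearest 4169). In the same group mouse 4 had 3.92 CPM of Kcnj8 (nearest 2.96) and mouse 7 had 145.7 CPM of Grik2 (nearest 115.5).

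Among CTRL mice, mouse 24 was high in the vHipp for mt-Nd4 at 3845 CPM (nearest 3357) and for Rps27 at 75.9 CPM (nearest 60.0), and in the mPFC for Ttr at 10.52 CPM (nearest 1.26). Mouse 38 had 7.76 CPM of Ttr in the vHipp (nearest 1.15), and mouse 30 had 100.2 CPM of Rgs5 in the mPFC (nearest 78.9). Mouse 22 stood apart for H2-T22 in both regions, at 9.25 CPM in the mPFC (nearest 1.00) and 9.36 CPM in the vHipp (nearest 1.11). Mouse 39 was low in the mPFC for Srp54a at 0.308 CPM (nearest 1.798).

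In the mPFC of CSDS mice, mouse 2 had 31.0 CPM of Fkbp5 (nearest 23.6), mouse 10 had 39.8 CPM of Sema3c (nearest 31.5) and mouse 4 had 84.5 CPM of Nectin1 (nearest 70.3). The mPFC library of mouse 4 was also the deepest of its group, at 34501588 counts against 23191568 in the nearest.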

How the results depend on the processing

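The 0 calls of the interaction became 7 with DESeq2 and 5 with terms for region and set (Rps27, mt-Co3, Gm28438, Gm29216 and Klk10, all negative, Klk10 named after its values were seen). Leaving out single mice gave 0 to 11, the 11 without CTRL mouse 35, all negative and all but Gm4076 mitochondrial genes or their copies. Without the replicate block there were 0 calls, and the counts of negative members were 5 for microglia, 1 for nuclear oxidative phosphorylation genes and 10 for ribosomal proteins. With all mice in the fit they were 4 for microglia, 3 for vessels and 9 for oxidative phosphorylation. Without mice 9 and 13 they were 5 for microglia and 9 for oxidative phosphorylation, and the Ttr LFC turned to 0.55. Oxidative phosphorylation gave 2 with limma-voom and 9 with the run as a random effect. Without single mice, the vessel count ran from 5 to 11 (11 without mouse 7) and the oxidative phosphorylation count from 8 to 17 (8 without mouse 38, 9 without mouse 33 or mouse 9). The 657 genes under an unadjusted p of 0.05 for stress in the mPFC became 295 with edgeR's filterByExpr, which tests fewer genes. The 0 calls for stress in the vHipp became 1 with DESeq2. For all but the filters, the cause was not tested.

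The balance of positive and negative interactions at an unadjusted p under 0.05 was 900 to 1080, and it was 1292 to 789 with all mice in the fit, 757 to 1341 with limma-voom, 718 to 1216 with the GC offset, 677 to 1142 with the length offset and 619 to 880 without the block. Positive ones were the majority also without mice 9 and 13 (752 to 744), with no filter (52.4% positive) and without mouse 24 (1190 to 955), mouse 10 (1115 to 854), mouse 9 (53.5% positive) or mouse 18 (971 to 958), so neither direction prevailed throughout. Of single-gene values, 3849 stayed on their side of the threshold, 456 lost it in the same direction, 9 moved past it and 1 reversed. Of the 3849, 83, of 17 genes not under the threshold in either fit, changed sign. Genes of a few counts, such as Ttr and Gabra6, have little precision at this depth.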

Other observations

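Several lists that the text has not described had few members under an unadjusted p of 0.05, by edgeR's quasi-likelihood test. Of 20 interferon-stimulated and class I histocompatibility genes 3 had a negative interaction and 0 a positive one (median LFC -0.26). The count was 1 without mice 9 and 13 (median LFC -0.15), and without 1 mouse it ran from 1 (mouse 27 or 4) to 6 (mouse 8). Irf7, a transcription factor of the interferon response, had an LFC of -0.84 (unadjusted p = 0.00998), Isg15, a ubiquitin-like protein, -0.90 (unadjusted p = 0.0214), and B2m, the light chain of class I molecules, -0.33. Of 16 genes of perineuronal nets and matrix 3 were negative and 1 positive (median LFC -0.20), with Has2, a hyaluronan synthase, at -0.97, the lecticans Ncan and Bcan at -0.20 and -0.25, and Mmp16, a membrane metalloproteinase, at 0.22. Without mice 9 and 13 the counts were 1 and 0 (median LFC -0.14).

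Of 17 NRF2 and glutathione genes 3 were negative and 1 positive, with Gpx4, the glutathione peroxidase of membrane lipids, at -0.21 and Txnrd1, a thioredoxin reductase, at 0.12, and without mice 9 and 13 the counts were 1 and 0. Of 27 monoamine genes 2 were negative, Adra1a (LFC -0.34) and Htr1b (-0.66), and 1 positive, the serotonin receptor Htr4 (0.40), against 1 and 0 without mice 9 and 13. Of 20 synaptic genes 2 were negative, the postsynaptic scaffolds Homer2 (-0.36) and Shank3 (-0.21), and 1 was without mice 9 and 13. Of the 20 synaptic estimates 12 were above 0, with a median of 0.01. Of 20 heat shock and endoplasmic reticulum chaperones 1 was positive and 2 negative (1 and 1 without mice 9 and 13). Of 11 neurogenesis and proliferation genes 1 was positive, Neurod1 (0.32), although 6 of the 11 estimates were below 0. Thalamic markers gave 1 negative of 9, Prkcd (-0.56), and ependymal markers 1 of 9, Dynlrb2 (-2.07), and both counts were 0 without mice 9 and 13. Of the 9 thalamic estimates 6 were above 0, with a median of 0.07.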
